A study of Saccharomyces cerevisiae with 18 samples.

Results

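Hsp90 is an abundant ATP-driven chaperone that brings folded but unstable proteins, among them protein kinases and transcription factors, into their active form. Clients are handed over from Hsp70, and a set of co-chaperones then sets the pace of the cycle by holding Hsp90 open, speeding its ATP hydrolysis or binding its closed state. Budding yeast makes Hsp90 from a pair of near-identical genes, of which *HSC82* is expressed at all times and *HSP82* is strongly induced by heat through the transcription factor Hsf1. The genes described here are these Hsp90 genes and 8 co-chaperone genes, taken as a list of names and found in both deposited tables. They are 10 of 6159 genes in all. All 10 were listed in the monosome table (6085 genes) and in the disome table (5767 genes), and all 10 passed the filter on low counts in every fit.

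The study profiled ribosomes in the triple deletion *ncs2*∆*elp6*∆*hel2*∆, in *ncs2*∆*elp6*∆, in *hel2*∆ and in wild type. Ncs2 and Elp6 belong to the pathways that modify the wobble uridine of certain tRNAs, and Hel2 is the ubiquitin ligase that recognises collided ribosomes. Footprints of single ribosomes (monosomes) were sequenced from 2 triple deletion, 3 *ncs2*∆*elp6*∆, 2 *hel2*∆ and 3 wild-type libraries. Footprints of pairs of packed ribosomes (disomes) were sequenced from 2 libraries of each strain. All strains derive from BY4741 and were grown in YPD at 30°C to mid-exponential phase. The labels give the triple deletion and *ncs2*∆*elp6*∆ the alleles *ncs2*∆::*HIS3MX* and *elp6*∆::*URA3*, and the triple deletion and *hel2*∆ the allele *hel2*∆::*LEU2*. Wild type is given as *MATa his3*∆*1 leu2*∆*0 ura3*∆*0 met15*∆*0*. The study calls its wild-type and *ncs2*∆*elp6*∆ monosome replicates and its disome replicates biological, but the sources used here do not tie each library to a separate culture, so p-values measure the spread between these libraries, which may in part be technical.

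The monosome libraries held 2381991 to 4352295 counted footprints in the triple deletion, 13791038 to 24884873 in *ncs2*∆*elp6*∆, 2560606 to 3548631 in *hel2*∆ and 11702547 to 13710907 in wild type. The disome libraries held 845707 to 2521397. Depth and *HEL2* genotype cannot be told apart in the monosome libraries. The deleted genes were low where the labels say so, with at most 6 *HEL2* counts in any *HEL2*-deleted monosome library against at least 880 in the others. Of the markers, *LEU2* had 22 to 25 counts in *hel2*∆ monosomes and 59 to 102 in the triple deletion, against at most 4 elsewhere. *URA3* had 1 to 2 counts in *ncs2*∆*elp6*∆ monosomes and 0 in the triple deletion, so this labelled marker was not seen in the counts. The reason was not tested. *MET17*, also called *MET15*, had at least 517 counts in each triple deletion and *ncs2*∆*elp6*∆ monosome library but at most 24 in *hel2*∆ and wild type, so its state and the wobble-modification genotype cannot be told apart. The **a**-cell gene *BAR1* had at least 337 counts in every monosome library and *MF(ALPHA)1* and *MF(ALPHA)2*, genes of the other mating type, at most 4. *STE3*, also of the other mating type, had 4 to 15 counts in the triple deletion and 40 to 78 in *ncs2*∆*elp6*∆. In *hel2*∆ it had 5 in each library and in wild type 7 to 21. Amounts of mRNA were not used here, so more mRNA and more ribosomes per mRNA cannot be told apart in these counts.

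Together the 10 genes took 2.51% ± 0.00196 of monosome footprints in the triple deletion (SD, n = 2), 2.25% ± 0.11 in *ncs2*∆*elp6*∆ (SD, n = 3), 1.28% ± 0.0439 in *hel2*∆ (SD, n = 2) and 1.42% ± 0.0403 in wild type (SD, n = 3). The 2 Hsp90 genes made up most of it, with 1.90% ± 0.00709 in the triple deletion, 1.59% ± 0.0821 in *ncs2*∆*elp6*∆, 0.906% ± 0.0402 in *hel2*∆ and 0.972% ± 0.0248 in wild type. Among disome footprints the 10 genes took more, 3.33% ± 0.00576 in the triple deletion, 3.61% ± 0.0402 in *ncs2*∆*elp6*∆, 2.24% ± 0.0579 in *hel2*∆ and 1.98% ± 0.101 in wild type (SD, n = 2 each). Ranked by counts, *HSC82* was the most counted gene of both *ncs2*∆*elp6*∆ disome libraries and stood at rank 2 in the triple deletion, at rank 8 in *hel2*∆ and at rank 7 to 8 in wild type.

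Levels below are CPM, footprint counts relative to the library total, scaled further by the TMM composition factor of edgeR (normalized CPM). This scaling sets the typical gene to no change. With library totals alone, the median gene was itself higher, by 0.27 on the log2 scale in *ncs2*∆*elp6*∆ and in *hel2*∆ monosomes against wild type, by 0.43 in triple deletion monosomes against wild type, and by 0.14 and 0.13 in the triple deletion against *ncs2*∆*elp6*∆ and *hel2*∆. In disomes the median gene was higher by 0.38 in the triple deletion against wild type, by 0.26 in the triple deletion against *hel2*∆ and by 0.33 in *ncs2*∆*elp6*∆ against wild type. Changes are therefore relative to the typical gene. The sentences on each group name the genes that turned direction with library totals alone and were called in either fit. Uncalled negative changes could turn as well, and not all are named there. Mean monosome CPM by library totals was 213 in *ncs2*∆*elp6*∆ against 199 in wild type at *HCH1*, and 118 against 111 at *CNS1*. In the triple deletion it was 75.2 against 64.4 in wild type at *CPR7*, and 882 against 811 in *ncs2*∆*elp6*∆ at *CPR6*. The near identity of *HSP82* and *HSC82* adds a limit. Only uniquely mapping reads were counted, so reads that fit both genes were dropped and the levels of both are uncertain.

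*HSP82* (YPL240C, chromosome XVI, 96496 to 98625, R64 assembly), the inducible Hsp90, had 3406 and 3518 normalized CPM in triple deletion monosome libraries, 2959, 3165 and 3686 in *ncs2*∆*elp6*∆, 1442 and 1319.9 in *hel2*∆ and 2011, 1606 and 1892 in wild type. Every library without wobble modification lay above every library with it, and *hel2*∆ lay below wild type. *HSC82* (YMR186W, chromosome XIII, 632355 to 634472), the constitutive Hsp90, had 13119.9 and 13252 normalized CPM in the triple deletion, 11628, 11727 and 13070.3 in *ncs2*∆*elp6*∆, 7530.3 and 7156 in *hel2*∆ and 9537, 9574 and 8951 in wild type. The 4 strains did not overlap, in the order *hel2*∆, wild type, *ncs2*∆*elp6*∆, triple deletion.

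**Figure D1:**
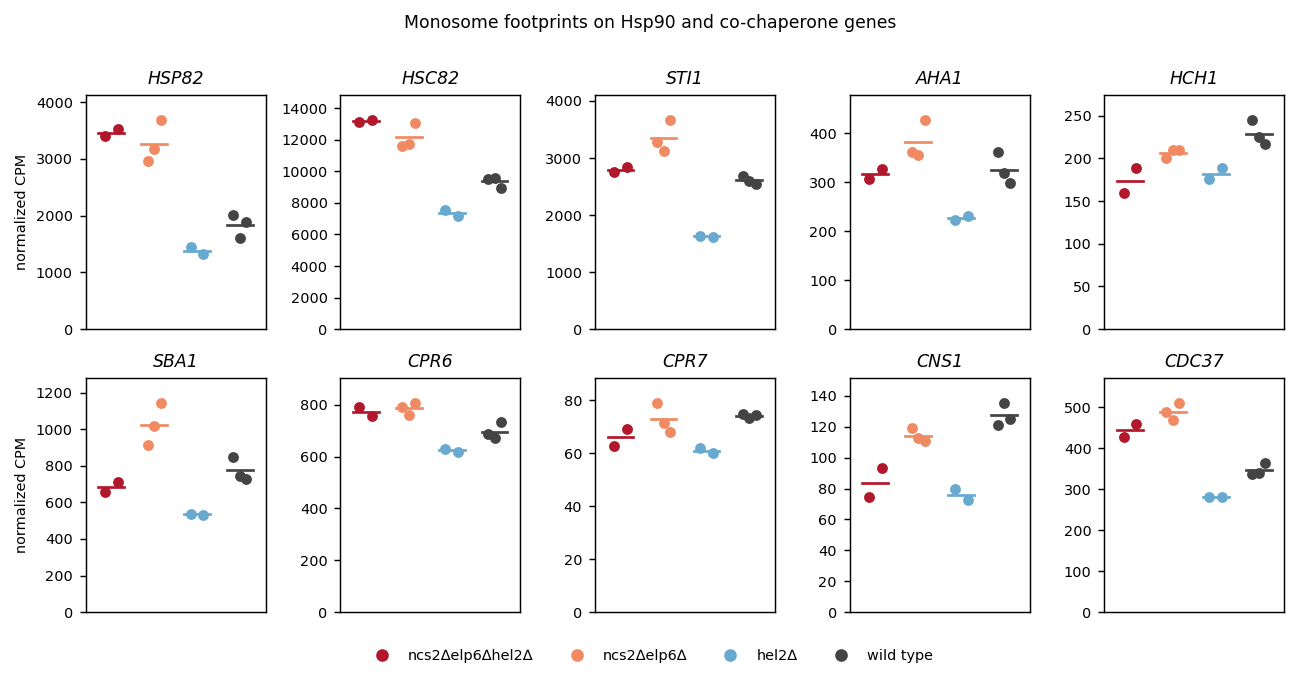
Monosome footprints on the 10 genes, 1 panel a gene, in normalized CPM on linear axes that start at 0. Points are libraries of the triple deletion, *ncs2*∆*elp6*∆, *hel2*∆ and wild type from left to right, and bars are their means. *HSP82* means were 3462, 3270.1, 1381 and 1837 in that order, whereas the *CPR7* means lay between 60.9 and 74.1.

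*STI1* (YOR027W, chromosome XV, 381053 to 382822) encodes the homologue of human Hop, which joins Hsp70 to Hsp90 and holds Hsp90 open. It had 2749 and 2838 normalized CPM in the triple deletion, 3274, 3119.9 and 3668 in *ncs2*∆*elp6*∆, 1638 and 1615 in *hel2*∆ and 2681, 2604 and 2542 in wild type. The *ncs2*∆*elp6*∆ libraries were the highest and the *hel2*∆ libraries the lowest, with no overlap between any pair of strains.

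*AHA1* (YDR214W, chromosome IV, 892875 to 893927) encodes the activator of the Hsp90 ATPase, and *HCH1* (YNL281W, chromosome XIV, 108467 to 108928) a smaller protein related to the amino-terminal part of Aha1. *AHA1* had 306 and 328 normalized CPM in the triple deletion, 361, 356 and 427 in *ncs2*∆*elp6*∆, 222 and 231 in *hel2*∆ and 361, 318 and 298 in wild type. Its *hel2*∆ libraries were the lowest, and the triple deletion lay within the range of wild type. *HCH1* had 159 and 189 normalized CPM in the triple deletion, 201, 209.6 and 209 in *ncs2*∆*elp6*∆, 176 and 188 in *hel2*∆ and 245, 226 and 217 in wild type, which was the highest strain.

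*SBA1* (YKL117W, chromosome XI, 220324 to 220974) encodes yeast p23, which binds the closed, ATP-bound form of Hsp90. It had 659 and 714 normalized CPM in the triple deletion, 915, 1019 and 1146 in *ncs2*∆*elp6*∆, 539 and 533 in *hel2*∆ and 849, 746 and 731 in wild type, again with no overlap between any pair of strains. *CDC37* (YDR168W, chromosome IV, 790328 to 791848) encodes the co-chaperone that brings kinases to Hsp90. It had 427 and 460.2 normalized CPM in the triple deletion, 489, 468 and 511 in *ncs2*∆*elp6*∆, 282 and 281 in *hel2*∆ and 338, 339 and 365 in wild type. Both strains without wobble modification were above both strains with it.

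*CPR6* (YLR216C, chromosome XII, 572096 to 573211) and *CPR7* (YJR032W, chromosome X, 491081 to 492262) encode cyclophilins of the Cyp40 type, prolyl isomerases that bind the tail of Hsp90 through tetratricopeptide repeats. *CPR6* ranged from 757 to 791 normalized CPM in the triple deletion, from 761 to 808 in *ncs2*∆*elp6*∆, from 619.5 to 631 in *hel2*∆ and from 670.1 to 732 in wild type. *CPR7* was among the least translated of the genes, with 62.7 to 69.2 in the triple deletion, 68.1 to 79.0 in *ncs2*∆*elp6*∆, 59.9 to 61.9 in *hel2*∆ and 73.3 to 74.9 in wild type. *CNS1* (YBR155W, chromosome II, 549771 to 550928), an essential gene for a co-chaperone with the same type of repeat, had 74.8 and 93.1 normalized CPM in the triple deletion, 119, 113 and 111 in *ncs2*∆*elp6*∆, 79.5 and 72.7 in *hel2*∆ and 121, 136 and 125 in wild type.

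Per kilobase of gene length, the order of monosome levels in wild type was *HSC82* with 4416 normalized CPM per kb, *STI1* with 1474, *SBA1* with 1191, *HSP82* with 862, *CPR6* with 624, *HCH1* with 496, *AHA1* with 309.5, *CDC37* with 228, *CNS1* with 110.0 and *CPR7* with 62.7. No neighbours in this order overlapped between libraries, and *hel2*∆ had the same order. *HSP82* stood at rank 2 in the triple deletion with 1625 normalized CPM per kb, overlapping *STI1* with 1578. In *ncs2*∆*elp6*∆ it kept rank 4, as in wild type and *hel2*∆, with 1535, and overlapped *SBA1* with 1577.

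Loss of wobble modification in the presence of Hel2 was addressed first, by setting *ncs2*∆*elp6*∆ monosomes against wild type. Both Hsp90 genes rose, *HSP82* by 0.82 on the log2 scale (SE 0.0981, adjusted p = 8.21e-06) and *HSC82* by 0.37 (SE 0.0736, adjusted p = 0.000602). Of the co-chaperones, *CDC37* rose by 0.49 (SE 0.0705, adjusted p = 3.38e-05), *SBA1* by 0.40 (adjusted p = 0.00139), *STI1* by 0.35 (adjusted p = 0.00104) and *AHA1* by 0.22 (adjusted p = 0.0469). These 6 of 10 genes were called higher (adjusted p under 0.05), against 26.6% of the 5281 genes tested, while 26.4% were called lower. *CPR6*, *HCH1* and *CNS1* changed by 0.17, -0.16 and -0.16 with adjusted p of 0.0546, 0.0693 and 0.0681, and *CPR7* by -0.03, a sign that turned to 0.22 with library totals alone. The median over the 10 genes was 0.29, against 0.02 over all genes. The *AHA1* call was lost with RLE size factors (adjusted p = 0.0629), with DESeq2 (0.0627) and without replicate 2 or 3 of wild type or replicate 3 of *ncs2*∆*elp6*∆, with adjusted p between 0.0132 and 0.223 over the libraries left out.

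The same loss in cells without Hel2 was read by setting triple deletion monosomes against *hel2*∆. *HSP82* rose by 1.33 (SE 0.0612, adjusted p = 3.63e-26), which is a 2.52-fold change, and *HSC82* by 0.85 (SE 0.0555, adjusted p = 1.76e-19). The 5 co-chaperones called with them rose by 0.79 for *STI1*, 0.66 for *CDC37*, 0.49 for *AHA1*, 0.37 for *SBA1* and 0.31 for *CPR6*, of which the last had the highest adjusted p (5.91e-05). These 7 of 10 genes were called higher, against 22.5% of the 5027 genes tested, while 21.7% were called lower. *CNS1*, *CPR7* and *HCH1* changed by 0.18, 0.14 and -0.05 (adjusted p = 0.214, 0.376 and 0.678). None of the 7 changed direction or lost its call under any alternative that was run, leaving out each library included.

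**Figure D2:**
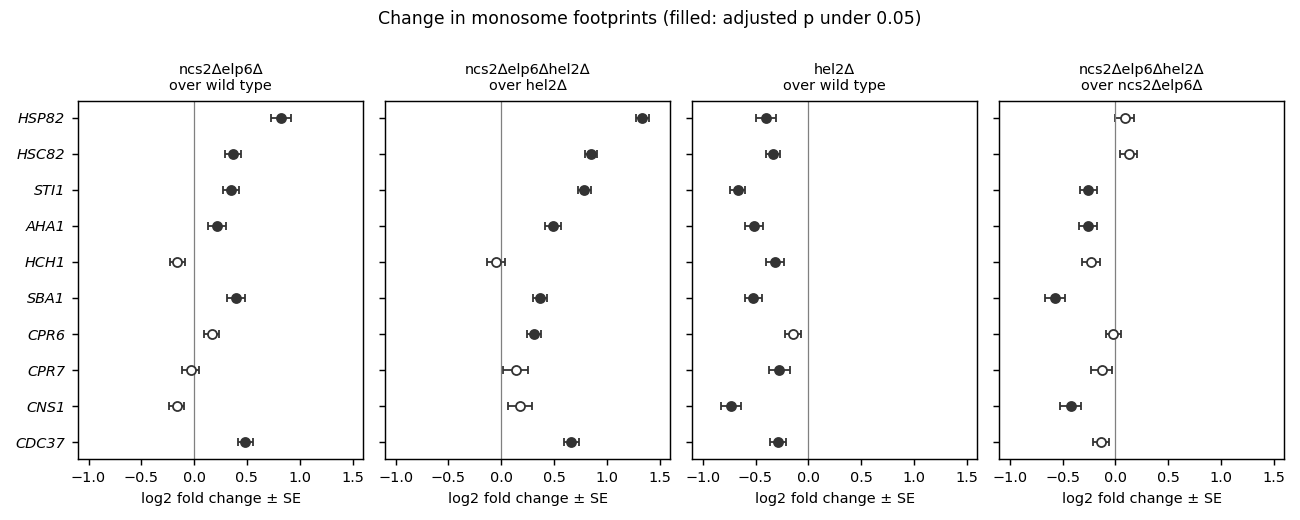
Changes in monosome footprints of the 10 genes on the log2 scale, with bars for the standard error, in 4 panels for *ncs2*∆*elp6*∆ against wild type, the triple deletion against *hel2*∆, *hel2*∆ against wild type and the triple deletion against *ncs2*∆*elp6*∆. Filled points have an adjusted p under 0.05. *HSP82* lies at 0.82 and 1.33 in the panels for loss of wobble modification, and all 10 points lie below 0 in the panel for *hel2*∆ against wild type.

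Deleting *HEL2* alone went the other way. In *hel2*∆ monosomes against wild type, *CNS1* fell by 0.73 on the log2 scale (SE 0.0941, adjusted p = 2.42e-05), *STI1* by 0.67 (SE 0.0691, adjusted p = 2.63e-06), *SBA1* by 0.52 and *AHA1* by 0.51 (adjusted p = 0.000118 and 0.000278). The Hsp90 genes fell by less, *HSP82* by 0.40 and *HSC82* by 0.34 (adjusted p = 0.00387 and 0.00108), followed by *HCH1* by 0.32, *CDC37* by 0.29 and *CPR7* by 0.27 (adjusted p = 0.0442 for the last). Thus 9 of 10 genes were called lower, against 17.2% of the 5225 genes tested, while 14.7% were called higher, and *CPR6* changed by -0.14 (adjusted p = 0.15). In normalized CPM the *hel2*∆ libraries lay below all 3 wild-type libraries in each of the 10 genes. How many of all genes did the same was not counted, and the separation depended on the scaling. In CPM by library totals the strains overlapped at *HSP82*, *HCH1*, *CPR6*, *CPR7* and *CDC37*. *HSP82*, for example, had 1502 and 1366 in *hel2*∆ against 1732, 1358 and 1702 in wild type. The count of 9 was 4 (*STI1*, *AHA1*, *SBA1* and *CNS1*) with library totals alone and also 4 without replicate 2 of *hel2*∆. None of the 9 changed direction. Over all genes, library totals alone called 1937 higher and 337 lower. The uncalled *CPR6* was higher by library totals, with a mean CPM of 649 in *hel2*∆ against 605 in wild type. *CPR7* lost its call with DESeq2 (adjusted p = 0.104) and with libraries thinned to equal depth (0.0713).

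In cells already without wobble modification, 4 co-chaperone genes were called lower on deleting *HEL2*, of which *SBA1* and *CNS1* were also called with library totals alone. Neither Hsp90 gene passed the test. Against *ncs2*∆*elp6*∆, triple deletion monosomes changed by 0.09 at *HSP82* (SE 0.0881, adjusted p = 0.507) and by 0.12 at *HSC82* (SE 0.0766, adjusted p = 0.257). *SBA1* fell by 0.57 (SE 0.0922, adjusted p = 0.000404), *CNS1* by 0.42 (adjusted p = 0.00584), *STI1* by 0.26 (adjusted p = 0.0293) and *AHA1* by 0.26 (adjusted p = 0.0449). These 4 of 10 genes were called lower, against 12.2% of the 5318 genes tested, while 12% were called higher. *HCH1* changed by -0.23 (adjusted p = 0.064), and *CPR6*, *CPR7* and *CDC37* by -0.02, -0.13 and -0.13. With library totals alone *HSP82* and *HSC82* passed the test, at 0.23 and 0.27, and *STI1* and *AHA1* lost their calls, at -0.12 and -0.12 (adjusted p = 0.211 and 0.31), which made 2 called higher and 2 lower. Over all genes, library totals alone called 1232 higher and 345 lower. *AHA1* also lost its call with libraries thinned to equal depth (adjusted p = 0.0761). Without replicate 3 of *ncs2*∆*elp6*∆ 2 genes were called higher and 3 lower. *SBA1* was the single call left without replicate 1 of the triple deletion.

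Between the triple deletion and wild type, which differ by all 3 deletions, *HSP82* was 1.87-fold higher (0.90 on the log2 scale, adjusted p = 1.14e-06) and *HSC82* 1.40-fold higher (0.48, adjusted p = 5.94e-05), and *CDC37* rose by 0.34 (adjusted p = 0.00279). *CNS1* fell by 0.60 (adjusted p = 0.000232) and *HCH1* by 0.40 (adjusted p = 0.0023), the last of which was at 0.0022 with library totals alone. The count was 3 called higher and 2 called lower of 10, against 22.5% and 23.2% of the 5272 genes tested. The counts of 3 and 2 were 7 and 0 with library totals alone, beside 2816 genes called higher and 471 lower in all. *STI1*, *AHA1*, *SBA1*, *CPR6* and *CPR7* changed by 0.08, -0.05, -0.19, 0.14 and -0.18 without passing the test. With library totals alone *AHA1* and *SBA1* turned to 0.35 and 0.22 (adjusted p = 0.00247 and 0.0288), *STI1* and *CPR6* were called at 0.49 and 0.54 (adjusted p = 1.16e-05 and 3.69e-05), and *CNS1* lost its call at -0.20 (adjusted p = 0.113). The call of *HCH1* was lost without replicate 1 and that of *CDC37* without replicate 2 of the triple deletion.

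A dependence of the *HEL2* effect on wobble modification was tested in 1 fit over all 4 strains, as the change in the triple deletion against *ncs2*∆*elp6*∆ minus the change in *hel2*∆ against wild type. It passed the test at both Hsp90 genes and at *STI1*. The difference was 0.49 on the log2 scale at *HSP82* (SE 0.138, adjusted p = 0.0439), 0.47 at *HSC82* (SE 0.102, adjusted p = 0.0102) and 0.42 at *STI1* (SE 0.106, adjusted p = 0.0244). These 3 of 10 genes were called higher, against 2.99% of the 5354 genes tested, while 2.3% were called lower. The call of *HSP82* was lost with library totals alone (0.39, adjusted p = 0.111). The other 7 differences lay between -0.05 at *SBA1* and 0.32 at *CNS1*. No member kept the call without replicate 1 or 2 of *hel2*∆ or replicate 2 of the triple deletion. A single member was called without replicate 1 of the triple deletion or replicate 1 or 2 of *ncs2*∆*elp6*∆, and adjusted p over the libraries left out ran up to 0.224 at *HSP82*, 0.117 at *HSC82* and 0.1495 at *STI1*. The lowest difference in these fits was 0.43 at *HSP82*, 0.44 at *HSC82* and 0.37 at *STI1*.

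The balance of the Hsp90 genes was read as the share of *HSP82* in their summed footprints, which does not depend on the scaling between libraries. In monosomes the share was 20.6% and 20.98% in triple deletion libraries, 20.3%, 21.3% and 22.0% in *ncs2*∆*elp6*∆, 16.1% and 15.6% in *hel2*∆ and 17.4%, 14.4% and 17.5% in wild type. All 5 libraries without wobble modification were above all 5 with it, whereas *hel2*∆ lay within the wild-type range. The share was 4.77 points higher in *ncs2*∆*elp6*∆ than in wild type (two-sided exact permutation test, p = 0.1, the smallest that 3 against 3 libraries allow) and 4.97 points higher in the triple deletion than in *hel2*∆ (p = 0.333, also the smallest possible in this exact test). Permuting wobble genotype within *HEL2* genotype over all 10 libraries gave a mean difference of 4.87 points (two-sided exact permutation test, p = 0.0167, the smallest of 120 arrangements). This permutation was added after the separation of the libraries was seen. That separation fixed its p at the smallest value, so it adds no support to the shares themselves.

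In disomes the share was 20.6% and 21.4% in the triple deletion, 25.1% and 25.0% in *ncs2*∆*elp6*∆, 19.2% and 18.0% in *hel2*∆ and 18.4% and 19.6% in wild type. The *ncs2*∆*elp6*∆ libraries were the highest, and the share in the triple deletion minus that in *ncs2*∆*elp6*∆ was -4.07 points (exact permutation test, p = 0.333, the smallest that 2 against 2 libraries allow). The mean difference by wobble genotype within *HEL2* genotype was 4.23 points (two-sided exact permutation test, p = 0.0556, the smallest of 36 arrangements). It too was added after the shares were seen, and their separation fixed its p. Disome reads are longer than monosome reads and may be unique more often, so shares of the 2 library types were not compared, and the part of the dropped reads in these shares was not tested.

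**Figure D3:**
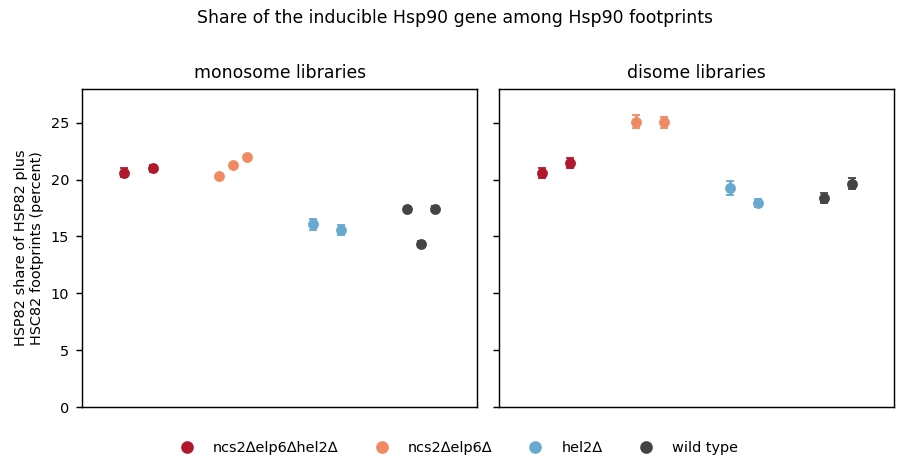
Share of *HSP82* in the footprints of *HSP82* plus *HSC82*, in percent, for each monosome library (left) and disome library (right), with strains from the triple deletion to wild type. Error bars are 95% Clopper-Pearson intervals, which cover counting error only. Monosome shares lie at 20.3% to 22.0% in the 5 libraries without wobble modification and at 14.4% to 17.5% in the 5 with it.

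Disome libraries were also compared alone. *HSP82* had 4889.6 and 5009 normalized CPM of disome footprints in the triple deletion, 6532 and 6624 in *ncs2*∆*elp6*∆, 3283 and 3758 in *hel2*∆ and 3337 and 3489 in wild type. Here *ncs2*∆*elp6*∆ was the highest and the triple deletion stood between it and both strains with wobble modification. *SBA1* followed the same order, with 482 and 525 in the triple deletion, 746 and 721 in *ncs2*∆*elp6*∆, 391 and 313 in *hel2*∆ and 387 and 326 in wild type. So did *CDC37*, with 711 and 709 in the triple deletion, 889.9 and 829 in *ncs2*∆*elp6*∆, 512 and 427 in *hel2*∆ and 492 and 346 in wild type. *HCH1*, *CPR7* and *CNS1* had 27.9 to 95.8 normalized CPM in all 8 libraries, and their changes passed the test in no pair of strains.

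Against wild type, *ncs2*∆*elp6*∆ disomes rose at 7 of 10 genes, against 12.8% of the 4405 genes tested, while 15.2% were called lower. The changes were 1.01 at *SBA1* (SE 0.121, adjusted p = 0.000293), 1.01 at *CDC37* (SE 0.158, adjusted p = 0.00151), 0.92 at *HSP82* (SE 0.0757, adjusted p = 3.52e-05), 0.52 at *CPR6*, 0.48 at *AHA1*, 0.41 at *HSC82* and 0.39 at *STI1*. Without either *ncs2*∆*elp6*∆ disome library 3 calls were left, those of *HSP82*, *SBA1* and *CDC37*. The same 7 genes were called higher in the triple deletion against wild type, with changes from 0.34 at *HSC82* to 0.74 at *CDC37*, against 11.7% of the 4451 genes tested, while 14.9% were called lower. None of these was called by edgeR without either triple deletion disome library. Both comparisons share the wild-type libraries.

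Against *hel2*∆, triple deletion disomes rose at 6 of 10 genes, against 13.1% of the 4361 genes tested, while 13% were called lower. They were *AHA1* at 0.89 (SE 0.127, adjusted p = 8.38e-06), *CDC37* at 0.60, *CPR6* at 0.56, *SBA1* at 0.52, *HSP82* at 0.49 and *STI1* at 0.39, and 2 of 10 were called without replicate 2 of the triple deletion. The call of *STI1* was lost with RLE size factors (adjusted p = 0.0669). Against *ncs2*∆*elp6*∆, triple deletion disomes fell at *SBA1* by 0.53 (SE 0.0687, adjusted p = 7.26e-06), at *HSP82* by 0.40 (SE 0.0456, adjusted p = 1.44e-06) and at *CDC37* by 0.26 (SE 0.0627, adjusted p = 0.00391). These 3 of 10 were called lower, against 13.7% of the 4342 genes tested, while 12.6% were called higher, and the call of *CDC37* was lost with all 4 strains in the fit (-0.27, adjusted p = 0.214). In *hel2*∆ disomes against wild type, edgeR and DESeq2 each called 0 of 10 genes, and the unadjusted p of edgeR was under 0.05 at 1, *AHA1* (-0.39). Few genes were called there in all, 0.331% higher and 0.508% lower of the 4531 tested.

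**Figure D4:**
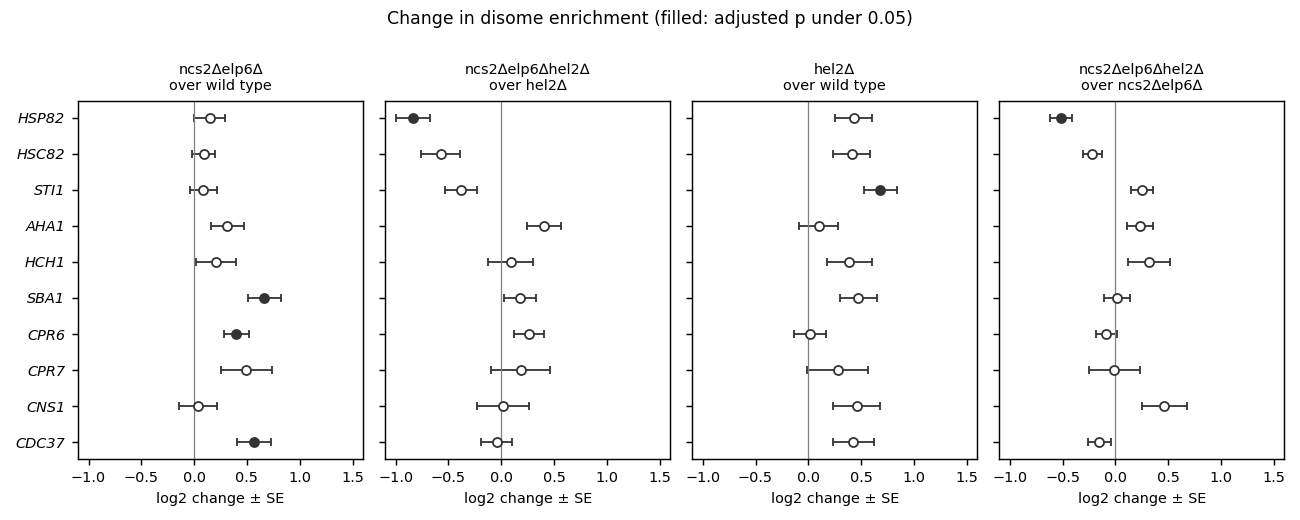
Changes in disome enrichment of the 10 genes on the log2 scale, with bars for the standard error, in the same 4 comparisons as for monosomes. Enrichment is the change in disome footprints set against that in monosome footprints. Filled points have an adjusted p under 0.05. *SBA1*, *CDC37* and *CPR6* are filled in *ncs2*∆*elp6*∆ against wild type. *STI1* is the only filled point in *hel2*∆ against wild type, and *HSP82* the only one in each panel of the triple deletion.

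Disome enrichment, the change in disome footprints set against that in monosome footprints, was tested as an interaction term between strain and library type. At 3 co-chaperone genes disomes rose beyond monosomes in *ncs2*∆*elp6*∆ against wild type. The enrichment was 0.67 at *SBA1* (SE 0.153, adjusted p = 0.00527), 0.57 at *CDC37* (SE 0.161, adjusted p = 0.0195) and 0.40 at *CPR6* (SE 0.119, adjusted p = 0.0262), which was 3 of 10 genes called higher, against 10% of the 5389 genes tested, while 8.68% were called lower. *HSP82* and *HSC82* changed by 0.15 and 0.09 (adjusted p = 0.535 and 0.617). *SBA1* was the single call left without replicate 2 or 3 of the wild-type monosomes, replicate 2 of the *ncs2*∆*elp6*∆ monosomes or either *ncs2*∆*elp6*∆ disome library.

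*HSP82* lost disomes relative to monosomes when *HEL2* was deleted from cells without wobble modification. Its enrichment in the triple deletion against *ncs2*∆*elp6*∆ fell by 0.51 (SE 0.105, adjusted p = 0.000519) and was the single call of 10 genes, against 8.17% of the 5017 genes tested called lower and 8.95% called higher. Against *hel2*∆ it fell by 0.83 (SE 0.162, adjusted p = 0.00219), again as the single call of 10, against 4.51% of the 5030 genes tested called lower and 4.57% called higher. Both calls of *HSP82* held under all alternatives that were run, with adjusted p up to 0.042 against *ncs2*∆*elp6*∆ and up to 0.022 against *hel2*∆. *HSC82* changed by -0.22 against *ncs2*∆*elp6*∆ (adjusted p = 0.0996) and by -0.57 against *hel2*∆ (adjusted p = 0.0558). The 2 comparisons share the triple deletion libraries. The loss was not particular to *HSP82* among heat shock genes. Of 14 genes listed below as taken to be driven by Hsf1, 8 were called lower and 1 higher in enrichment against *ncs2*∆*elp6*∆ (median -0.43). Against *hel2*∆, 9 of them were called lower and 0 higher (median -0.67). Against *hel2*∆, 3 of 10 genes were called without replicate 1 and 4 of 10 without replicate 2 of the *hel2*∆ disomes. Against *ncs2*∆*elp6*∆, 2 of 10 were called without replicate 2 or 3 of the *ncs2*∆*elp6*∆ monosomes or replicate 2 of the triple deletion monosomes.

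Enrichment at *STI1* was 0.68 higher in *hel2*∆ than in wild type (SE 0.156, adjusted p = 0.0187), 1 of 10 genes against 2.4% of the 4999 genes tested called higher and 2.8% called lower. This call was lost without either *hel2*∆ monosome library, replicate 1 or 2 of the wild-type monosomes or replicate 1 of the wild-type disomes, and *HSC82* was called as well without replicate 1 of the *hel2*∆ disomes. In the triple deletion against wild type, *SBA1* rose by 0.66 (SE 0.16, adjusted p = 0.00973) and *AHA1* by 0.53 (SE 0.159, adjusted p = 0.0313), 2 of 10 genes against 8.11% of the 5008 genes tested called higher and 6.89% called lower. *HSP82* changed by -0.39 there (adjusted p = 0.0692) and was called lower with library totals alone (-0.43, adjusted p = 0.0392). The call of *SBA1* was lost without replicate 2 of the triple deletion disomes, and that of *AHA1* without either triple deletion library of either type, replicate 1 or 2 of the wild-type monosomes or replicate 1 of the wild-type disomes.

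Set against the median of 4354 genes, the log2 ratio of disome to monosome footprints in same-numbered libraries placed the genes far apart. *HSP82* had 0.73 and 0.70 in the triple deletion, 1.38 and 1.29 in *ncs2*∆*elp6*∆, 1.37 and 1.74 in *hel2*∆ and 0.94 and 1.36 in wild type, with the triple deletion the lowest strain. *SBA1* had -0.25 and -0.25 in the triple deletion, -0.06 and -0.27 in *ncs2*∆*elp6*∆, -0.27 and -0.54 in *hel2*∆ and -0.93 and -0.95 in wild type, which was the lowest strain. *STI1* had 0.54 and 0.34 in the triple deletion, 0.24 and 0.30 in *ncs2*∆*elp6*∆, 0.84 and 0.83 in *hel2*∆ and -0.04 and 0.28 in wild type, with *hel2*∆ the highest. *HSP82* was at percentile 85.1 of all genes or above in every pair of libraries, and *HCH1* at percentile 13.8 or below. The ratio of each Hsp90 gene also depends on how many of its shorter monosome reads were unique, which was not tested.

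**Figure D5:**
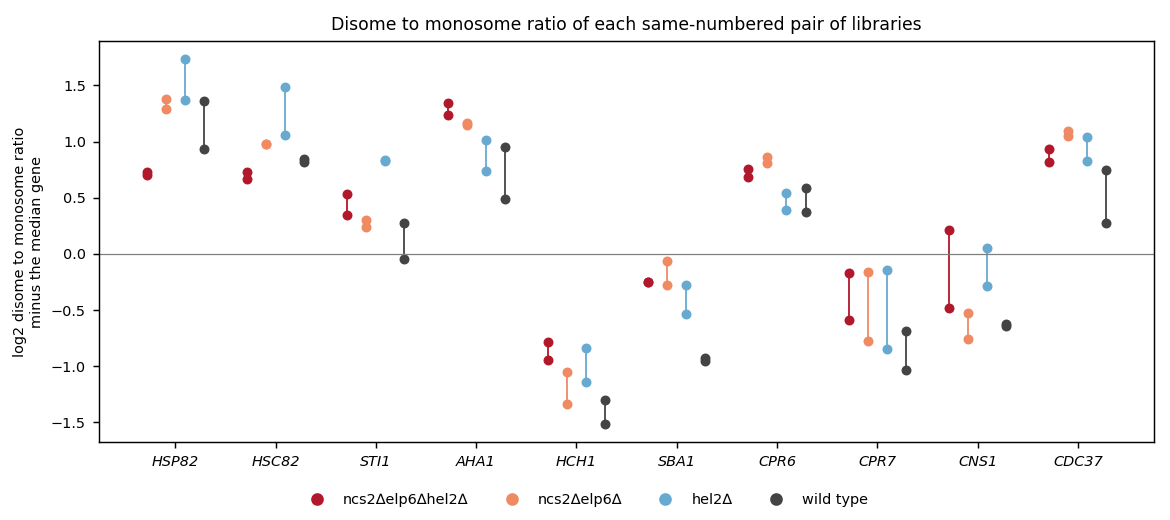
Log2 ratio of disome to monosome footprints of the 10 genes in same-numbered libraries, minus the ratio of the median gene of that pair, with strains from the triple deletion to wild type. Points are pairs of libraries and 0 is the median gene. *HSP82* lies at 0.70 to 0.73 in the triple deletion and at 0.94 or above in the other strains, whereas all *HCH1* points lie below 0.

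Further genes of the pathway were read from 3 lists, here in monosomes. Of 4 other co-chaperones, *TAH1* and *PIH1*, whose products act together in the R2TP complex, rose in *ncs2*∆*elp6*∆ against wild type by 0.80 and 0.67 (adjusted p = 2.62e-06 and 4.47e-05), and *PPT1*, the Hsp90-bound phosphatase, fell by 0.46 (adjusted p = 0.000286). In the triple deletion against *hel2*∆, *TAH1* and *PIH1* rose by 0.84 and 0.62, *SGT1*, which serves kinetochore assembly, rose as the third, and *PPT1* fell by 0.38. In *hel2*∆ against wild type, *TAH1* and *PIH1* fell by 0.58 and 0.47. Against *ncs2*∆*elp6*∆, triple deletion monosomes fell at the same genes by 0.56 and 0.54. None of the 4 was called with library totals alone in *hel2*∆ against wild type, where 1937 genes were called higher and 337 lower in all. In the triple deletion against wild type 1 of the 4 was called, lower. With library totals alone 3 were, all higher, beside 2816 genes called higher and 471 lower in all. With TMM, 22.5% of all genes tested there were called higher and 23.2% lower. These shares were 26.6% and 26.4% in *ncs2*∆*elp6*∆ and 14.7% and 17.2% in *hel2*∆ against wild type. In the triple deletion they were 22.5% and 21.7% against *hel2*∆ and 12% and 12.2% against *ncs2*∆*elp6*∆.

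The next list held 14 genes, for Hsp70s, their partners and other products taken to be driven by Hsf1. Of these, 10 were called higher and 2 lower in *ncs2*∆*elp6*∆ against wild type, beside 26.6% and 26.4% of all genes tested. Their median was 0.54, against 0.02 over all genes. The Hsp70 genes *SSA3* and *SSA4* rose most, by 4.39 and 2.21 on the log2 scale, while *SIS1*, an Hsp40, and *SSE1*, an Hsp110, fell by 0.53 and 0.29. In the triple deletion against *hel2*∆, 12 rose, *SSA3* by 5.70 and *SSA4* by 4.13, and 2 fell, again *SIS1* (by 0.33) and *SSE1* (by 0.26), beside 22.5% and 21.7% of all genes. In *hel2*∆ against wild type, 1 rose, the small heat shock gene *HSP42* by 0.66, and 7 fell, with *MBF1* by 0.63 and *SSA2* by 0.61 the most, beside 14.7% and 17.2% of all genes. The triple deletion against *ncs2*∆*elp6*∆ was mixed, with 6 higher, led by *HSP26* at 2.82 and *BTN2* at 2.39, and 5 lower, beside 12% and 12.2% of all genes. For the dependence of the *HEL2* effect on wobble modification, 5 of the 14 were called higher, beside 2.99% of all genes, with *HSP26* at 2.80 and *BTN2* at 2.502. In the triple deletion against wild type 8 were called higher and 4 lower, beside 22.5% and 23.2% of all genes. Of the 4, *SSA1* and *SSA2*, named here because they turned round, lay at -0.29 and -0.31 and at 0.11 and 0.10 with library totals alone. No other called gene of the 3 lists turned round in a monosome comparison. The 5 lower calls in the triple deletion against *ncs2*∆*elp6*∆ were 2 with library totals alone. Over all genes the lower calls there went from 651 to 345. *HSF1* itself rose by 0.45 in *ncs2*∆*elp6*∆ against wild type (adjusted p = 0.000127) and by 0.71 in the triple deletion against *hel2*∆ (adjusted p = 5.99e-06), whereas it changed by -0.17 in *hel2*∆ against wild type (adjusted p = 0.284).

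Of 6 genes for known Hsp90 clients, 5 were tested. In *ncs2*∆*elp6*∆ against wild type 4 rose, *SLT2*, the cell wall integrity kinase, by 1.31 and *STE11*, a kinase of the mating pathway, by 0.71 the most. In the triple deletion against *hel2*∆ 3 rose, with *SLT2* at 1.17 and *SWE1*, a cell cycle kinase, at 0.58. In *hel2*∆ against wild type the eIF2 kinase *GCN2* and *SLT2* rose by 0.71 and 0.46. Over all genes tested, 26.6%, 22.5% and 14.7% were called higher in these comparisons in the same order. With library totals alone 5, 3 and 5 of the 5 client genes were, beside 2620, 1549 and 1937 genes in all. In the triple deletion 3 of the 5 were called higher against *ncs2*∆*elp6*∆ and 4 against wild type, beside 12% and 22.5% of all genes.

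Across the 10 monosome libraries, log2 levels of the members were set against those of 4393 genes with at least 10 CPM on average, as a description over libraries that share strains and depth classes. The Pearson correlation with *HSP82* was 0.972 for *HSC82*, 0.955 for *CDC37*, 0.942 for *CPR6* and 0.843 for *STI1*, and 0.258, 0.108 and -0.156 for *CPR7*, *CNS1* and *HCH1*. The non-member genes most like *HSP82* were *GLO1*, *HSP104*, *CDC3*, *HIS3* and *NPL6*, with 0.980 to 0.985. Of these, *HIS3* shares its name with the *HIS3MX* marker of the *ncs2* deletion. Its mean was 164 normalized CPM in the triple deletion, 170 in *ncs2*∆*elp6*∆, 91.0 in *hel2*∆ and 109 in wild type. A part of the marker in these counts was not tested. *HSP104*, the disaggregase, had 1883 ± 64.8 normalized CPM in the triple deletion (SD, n = 2), 1675 ± 109.6 in *ncs2*∆*elp6*∆ (SD, n = 3), 872 ± 12.6 in *hel2*∆ (SD, n = 2) and 1042 ± 158 in wild type (SD, n = 3). Most like *HSC82* was *MTC1*, with a correlation of 0.997, followed by *CDC3*, *RQC1*, *LCP5* and *CTI6* with 0.979 to 0.984. *MTC1* had 282 ± 6.23 normalized CPM in the triple deletion, 267 ± 18.5 in *ncs2*∆*elp6*∆, 162 ± 6.56 in *hel2*∆ and 208 ± 11.5 in wild type.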

How the data were processed

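The deposited values are raw footprint counts of reading frames, with the 10 monosome libraries in 1 table and the 8 disome libraries in another. Per the study's methods and the submitters' processing notes, reads from noncoding RNA were removed with STAR 2.5.3a, the rest were mapped with Bowtie 1.2.3 to open reading frames extended by 21 bp, with 1 mismatch at most, and unique sense reads were counted. Monosome RNA was cut from gels between 28 and 32 nt, and disome reads were kept at 56 to 64 nt. No removal of PCR duplicates was stated, so intervals cover counting error only. The submitters' notes name the build sacCer3, and coordinates and lengths of the 10 genes are those of the RefSeq table of the R64 assembly.

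Counts were tested as deposited in edgeR 4.0.16 by its quasi-likelihood F test (R 4.3.3, robust dispersions, TMM, filterByExpr) and Benjamini-Hochberg adjustment over all genes tested. Fits held the libraries compared. A gene was called at an adjusted p under 0.05. DESeq2 1.42.0 was an alternative, as were RLE size factors, library totals alone, no filter, a replicate block, all 4 strains in the fit, thinning to equal depth and leaving out each library (100 fits). Fits were tested on simulated data. Levels are CPM scaled by TMM over libraries of one type, and ratios used a prior count of 2. All 10 genes are named in every comparison. Of the other lists, at most 2 called genes a direction were named, those with the largest change, besides *HSF1* and the 5 genes most like each Hsp90 gene. Members and lists were chosen with earlier results of these data known. The comparison of disome libraries alone and the stratified permutation were added after seeing the data.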

Additional observations from a re-analysis of the deposited data

Results flagged for a closer look

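At 3 genes the effect of deleting *HEL2* differed between cells without and with wobble modification, by a test of the difference itself. In monosomes, the change in the triple deletion against *ncs2*∆*elp6*∆ minus the change in *hel2*∆ against wild type was 0.49 at *HSP82* (SE 0.138, edgeR adjusted p = 0.0439), 0.47 at *HSC82* (SE 0.102, adjusted p = 0.0102) and 0.42 at *STI1* (SE 0.106, adjusted p = 0.0244). At *HSP82* and *HSC82* the change was 0.09 and 0.12 without wobble modification and -0.40 and -0.34 with it. At *STI1* it was -0.26 without and -0.67 with wobble modification. The difference at *HSP82* was 0.39 with library totals alone (adjusted p = 0.111). None of the 3 passed the test without replicate 1 or 2 of *hel2*∆ or replicate 2 of the triple deletion.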

How the results depend on the processing

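Of 600 single-gene values in monosome strain comparisons under an alternative, 542 kept their call status, 38 lost and 16 gained a call. The other 4 turned round with a call in either fit. The same counts were 842, 28, 30 and 0 of 900 for disome enrichment, 463, 33, 4 and 0 of 500 for disome libraries alone and 143, 17, 0 and 0 of 160 for the dependence of the *HEL2* effect. The 4 turned round with library totals alone, where the median gene shifted. They were *CPR7* (0.22) in *ncs2*∆*elp6*∆ and *AHA1* (0.35), *SBA1* (0.22) and *HCH1* (0.0022) in the triple deletion against wild type. With library totals alone, 4 members were called in *hel2*∆ against wild type monosomes, and 2 and 3 for enrichment in the triple deletion against *ncs2*∆*elp6*∆ and *hel2*∆. Enrichment in the triple deletion against *hel2*∆ had 2 calls with RLE size factors, no filter, all 4 strains or TMM within library type and 3 with DESeq2. Enrichment in *hel2*∆ against wild type had 4 calls with all 4 strains in the fit.

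Same-numbered libraries of different strains did not deviate together (mean correlations -0.0437 to 0.0635), so numbers were not taken to pair strains. Whether same-numbered monosome and disome libraries of a strain share a culture was not tested. With the replicate number as a block, 2 members were called in triple deletion against *ncs2*∆*elp6*∆ monosomes and 2 for its enrichment, also 2 with the block by culture. Besides *STI1* and *AHA1* there, the block ended the calls of *AHA1* in *ncs2*∆*elp6*∆ against wild type monosomes (adjusted p = 0.0632) and of *HSP82* (0.0501) and *STI1* (0.107) in triple deletion against *hel2*∆ disomes, where 4 were left, and by culture that of *CPR6* for enrichment in *ncs2*∆*elp6*∆ against wild type (0.0533). It changed no other count of member calls by more than 1.5 times. Leaving out each library in turn gave, for monosomes, 5 to 7 calls in *ncs2*∆*elp6*∆ and 4 to 9 in *hel2*∆ against wild type, 1 to 5 in the triple deletion against *ncs2*∆*elp6*∆, 7 to 8 against *hel2*∆, 4 to 6 against wild type and 0 to 3 for the dependence. For enrichment it gave 1 to 3, 0 to 2, 1 to 2, 1 to 4 and 0 to 3 in the same order of strain pairs, and for disomes alone 3 to 8, 0 to 0, 2 to 4, 2 to 7 and 0 to 7. The *HSP82* share in *ncs2*∆*elp6*∆ minus wild type stayed between 3.75 and 5.29 points. The causes were not tested.

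Over all genes, DESeq2 called 1255 in triple deletion against *hel2*∆ monosomes, where edgeR called 2220, 259 against 457 for its enrichment, 614 against 1136 for its disomes, and 581 against 1142 for triple deletion against *ncs2*∆*elp6*∆ disomes (625 with all 4 strains). Enrichment in *hel2*∆ against wild type had 518 with all 4 strains and 260 otherwise. For *hel2*∆ disomes 38 genes were called, 24 with library totals, 67 without the filter, 95 with the block and 156 with all 4 strains. Leaving out a library gave 46 to 691 genes for the dependence (283 called otherwise), 632 to 2199 in *hel2*∆ against wild type monosomes (1666) and 28 to 468 for its enrichment (260). It gave 647 to 1314 (1290) and 1431 to 2333 (2220) in triple deletion monosomes against *ncs2*∆*elp6*∆ and *hel2*∆. For enrichment it gave 495 to 1079 (1007) in *ncs2*∆*elp6*∆ against wild type and 514 to 925 (859), 173 to 832 (457) and 423 to 971 (751) in the triple deletion against *ncs2*∆*elp6*∆, *hel2*∆ and wild type. For disomes alone it gave 409 to 1944 (1236) in *ncs2*∆*elp6*∆ and 9 to 122 (38) in *hel2*∆ against wild type and 609 to 1308 (1142), 627 to 1205 (1136) and 430 to 1395 (1183) in the triple deletion against *ncs2*∆*elp6*∆, *hel2*∆ and wild type. Library totals also moved the share of called genes that were higher, to 81.0% and 85.2% in *ncs2*∆*elp6*∆ and *hel2*∆ against wild type monosomes (50.2% and 46.0% with TMM), to 78.1%, 67.7% and 85.7% in the triple deletion against *ncs2*∆*elp6*∆, *hel2*∆ and wild type (49.5%, 50.9% and 49.2%), and to 29.2% for the dependence (56.5%). It went to 29.5%, 36.5% and 67.7% for enrichment in *hel2*∆ against wild type and in the triple deletion against *ncs2*∆*elp6*∆ and *hel2*∆ (46.2%, 52.3% and 50.3%), and in disomes alone to 77.7% and 58.3% in *ncs2*∆*elp6*∆ and *hel2*∆ and 77.9% in the triple deletion against wild type (45.7%, 39.5% and 44.1%) and 74.7% in the triple deletion against *hel2*∆ (50.3%). A correction for unique positions was not run, since it needs a genome, which was not used here. At the depth of the disome libraries *CPR7* had 36 to 67 counts a library, so that its SE reached 0.33 on the log2 scale.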
